A study of Homo sapiens with 2 samples.

Results

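TGFBR2 encodes the type II receptor for transforming growth factor beta (TGF-beta), and the strongest peak of a list from chromatin immunoprecipitation with anti-Myocardin antibody and IgG, which is not divided by antibody, lay 142 bp before its start. The members described here are the 8 peak summits, of 105637 in the list, that fell within TGFBR2 or 100 kb on either side. In GRCh37 the gene runs over chr3:30647994-30735633 on the plus strand and the window over chr3:30547994-30835633, which is 287.6 kb long. Members were chosen by position. The strongest summit was in addition singled out by its score, so its score and rank are a description and were not tested.

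The list comes from A549, a human lung adenocarcinoma line that stably overexpressed MYOCD from the lentiviral vector pWPI. Chromatin of these cells was precipitated with anti-Myocardin antibody (1 library) or with IgG (1 library), and sequenced. Both libraries carry the MYOCD transgene, and no library of A549 without it was analysed here. Whether the line is 1 clone or a pool is not stated in the sources used here. The deposited list covers the whole series and ties no summit to an antibody, so the IgG signal at TGFBR2 could not be set beside the anti-Myocardin signal. Neither library's depth is given in the sources used here, and there are no replicates, so no p-value is given. The list carries no expression values, and the labelled cell line could therefore not be checked against markers. Scores have no stated unit. They rank peaks within this list, and their range over all peaks was 2.15 to 281.39, around a median of 8.50.

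TGFBR2 is a transmembrane serine/threonine kinase. It binds the TGF-beta ligands, joins the type I receptor TGFBR1 and activates it by phosphorylation, after which TGFBR1 phosphorylates SMAD2 and SMAD3, which act with SMAD4 on target genes. In epithelial cells the pathway is known for growth arrest and for epithelial-mesenchymal transition. Myocardin is a coactivator that binds the serum response factor, SRF, whose DNA element is the CArG box.

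Sequence around the RefSeq starts of TGFBR2 is shown because the strongest summit lay 142 bp before the GRCh37 start of the gene. RefSeq, on GRCh38.p14, gives TGFBR2 starts that are 245 bases apart, and the table used holds a window of 300 bases for each, from 250 bases before the start to 50 after it. The first is chr3:30606106-30606405 and the second chr3:30606351-30606650, both on the plus strand, and they share 55 bases. Capitals mark matches on either strand to GGGCGG (the GC box bound by Sp1), to the CCAAT box (ATTGG where it lies on the minus strand), to the E-box CANNTG and to the Smad element AGAC (GTCT on the minus strand). None of these marked matches overlapped another.

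TGFBR2 window at the first start: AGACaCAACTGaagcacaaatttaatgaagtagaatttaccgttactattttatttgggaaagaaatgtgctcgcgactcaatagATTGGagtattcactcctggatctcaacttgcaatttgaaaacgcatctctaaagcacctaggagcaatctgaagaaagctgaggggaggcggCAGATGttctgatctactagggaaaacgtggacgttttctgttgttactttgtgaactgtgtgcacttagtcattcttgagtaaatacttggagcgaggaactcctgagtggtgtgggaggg

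TGFBR2 window at the second start: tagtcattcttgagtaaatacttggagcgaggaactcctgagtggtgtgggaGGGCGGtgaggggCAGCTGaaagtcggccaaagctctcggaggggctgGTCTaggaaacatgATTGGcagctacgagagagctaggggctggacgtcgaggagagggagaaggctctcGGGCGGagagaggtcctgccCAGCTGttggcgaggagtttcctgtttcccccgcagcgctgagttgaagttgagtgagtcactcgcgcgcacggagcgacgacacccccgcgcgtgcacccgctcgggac

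Positions were not carried from GRCh37 to GRCh38, so the base under the summit is not marked. Its distance of 142 bp is shorter than the 250 bases that each window reaches upstream. How the GRCh37 start relates to either RefSeq start was not determined, so whether the summit lies in either window is not known.

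Both windows lacked a CArG box of the strict pattern CCWWWWWWGG (W is A or T), which 1.29% of the 35116 promoter windows in the table held. Sites with a mismatch to this pattern were not searched. The GC box occurred 2 times in the second window, 198 and 80 bases before its start, and was not found in the first; 45% of all windows held it. A CCAAT box lay 165 bases before the first start and another 136 bases before the second, against 34.6% of all windows with at least 1. Each window held 2 E-boxes, an element found in 68.7% of all windows. Single AGAC matches stood in each, where 84% of all windows had at least 1 and the median was 2. The longer Smad element CAGACA (16.9% of all windows) and the TATA motif TATAAA (11.5%) were found in neither. The ETS core GGAA, left in lower case, occurred 3 times in the first window and 4 times in the second, and 95.5% of all windows had it. The windows also differed in base composition, with 42.3% GC and 8 CpG in the first and 61.7% GC and 23 CpG in the second, beside medians of 58.7% and 14 over the table. A motif match describes these letters and says nothing of what was bound there.

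At TGFBR2 the list holds 1 very high score and 7 far lower ones. The summit at chr3:30647852 scored 281.39, the highest value of the list. It stood 142 bp before the gene start. Its score was 13.59 above that at rank 2. Among the first 20 steps from one rank to the next, 3 were larger than this, so the lead of the TGFBR2 summit over the other strong peaks was not the widest step at the head of the list. In all, 9 peaks scored at least 200, and 35 scored at least 100.

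The 7 other members had a median score of 7.37 and ran from 4.82 to 18.55, with an SD of 4.68 among them. All 105637 peaks had a median of 8.50. Counting the strongest, 2 of the 8 members reached the top 25% of scores, at 12.16 or above, which held 26.3% of the list because of ties at the threshold. At the low end, 3 of the 8 lay in the lowest 25%, at 6.49 or below. The value 6.49 was carried by 3569 peaks, which share rank 76885 of 105637, so with ties this part also held more than 25% of the list. The member at chr3:30733050 lay exactly at this threshold. The 7 others thus reached from the lowest 25% to the top 25% of the list, with 1 of them in the top 25%.

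Upstream of the gene, 6 members lay in 100 kb. The highest of the 7 others was at chr3:30632992, 15.0 kb before the start, with a score of 18.55 (rank 8329). A weaker summit stood 2.92 kb from it at chr3:30630072, with a score of 10.18. These form a pair between 15.0 and 17.9 kb before the start.

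A second group lay 69.8 to 80.7 kb before the start. It held chr3:30578227 with a score of 7.37, chr3:30575186 with 9.92 and chr3:30567276 with 5.64. The first and second of these were 3.04 kb apart, and the third followed after another 7.91 kb. Between this group and the pair nearer the gene no summit was listed.

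The body of TGFBR2 held 2 summits in 87.6 kb. One was at chr3:30671210, 23.2 kb after the start, with a score of 4.82, the lowest of the members. The other was at chr3:30733050, 85.1 kb after the start and near the gene's end, with a score of 6.49. These 2 were among the 3 members in the lowest 25% of the list, and which exon or intron they fall in was not determined.

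No summit was listed in the 100 kb after the gene. Per 100 kb the upstream flank held 6 summits, the gene 2.28, the downstream flank 0 and the whole window 2.78. Empty stretches of this length were common. Of 30092 windows of 100 kb between the first and last summits of the nuclear chromosomes, 18.8% held none, and on chromosome 3 it was 16.8% of 1980. Very long stretches without a summit, such as 21053.1 kb on chromosome 1, were not left out and raise the share over all chromosomes.

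**Figure D1:**
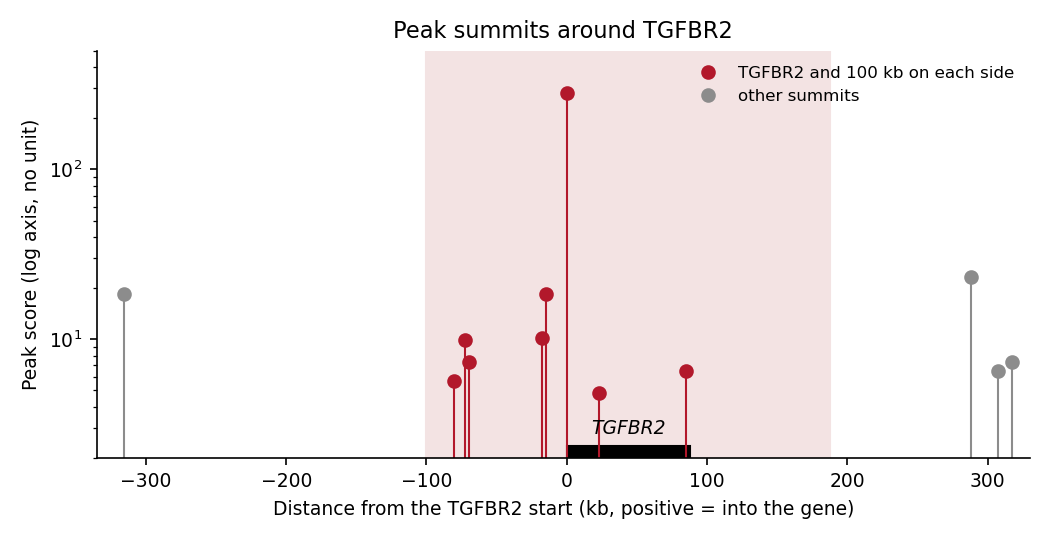
Peak score (log axis) against distance from the TGFBR2 start in kb for each summit, with members in red, other summits in grey, the window shaded and the gene as a black bar. The summit at 142 bp before the start stands at 281.39, and the 7 other members lie between 4.82 and 18.55.

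No summit lay just outside the window. The nearest summit outside it on the upstream side was at chr3:30332219, 215.8 kb beyond the edge, with a score of 18.55. On the downstream side it was at chr3:30936197, 100.6 kb beyond the edge and 200.6 kb from the gene's end, with a score of 23.32. The member closest to an edge was chr3:30567276 on the upstream side. A flank of 200 kb in place of 100 kb gave the same number of 8 members.

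The 8 summits thus formed a run of 165.8 kb between a gap of 235.1 kb before it and one of 203.1 kb after it. This way of dividing the list was chosen after the gaps had been seen. Gaps of at least 200 kb made up 1.38% of the 105605 gaps between neighbouring summits. They divided the nuclear chromosomes into 1438 runs with such a gap on both sides, with a median of 9.5 summits per run and quartiles of 3 and 36. In size the TGFBR2 run was near the middle. Its highest score of 281.39 stood beside a median highest score of 18.31 in the 227 other runs of 6 to 10 summits. Of those runs, 2 had a score of at least 50, and the highest reached 134.09. The TGFBR2 run holds the highest score of the list, so that it exceeded all other runs was fixed in advance. These values are a description only.

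Within 1 Mb of the gene start the list held 38 summits, 22 before the start and 16 after it. The 37 other than the strongest had a median score of 9.92, and 35.1% of them lay in the top 25%, against 26.3% of the list. The highest among them was the 23.32 at chr3:30936197, 288.2 kb after the start, at rank 3526. No score of 30 or more lay closer to the strongest summit than 1.70 Mb, where chr3:28944813 scored 33.17. The nearest score of 50 or more on chromosome 3 was 45.07 Mb away. In steps of 100 kb over these 2 Mb, 7 of 20 held no summit. That is a larger share than the 16.8% of empty 100 kb windows on chromosome 3 and the 18.8% over the nuclear chromosomes. The step just before the start held 6, a number matched by the step from 900 to 1000 kb after it and passed by none.

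**Figure D2:**
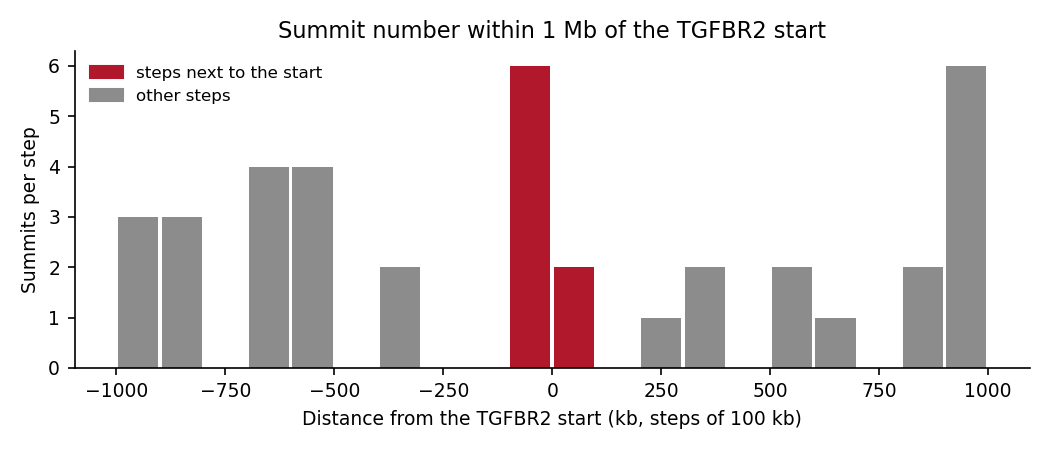
Number of summits in steps of 100 kb within 1 Mb of the TGFBR2 start, with the steps on either side of the start in red and the others in grey. The step before the start holds 6 summits, and 7 of the 20 steps hold none.

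In number of summits the window was ordinary. The nuclear chromosomes were divided end to end into windows of the same length, and 9845 of these held at least 1 summit. The TGFBR2 window held 8, beside a median of 7 and quartiles of 4 and 15 in those windows, and 55.0% of them held 8 or fewer. Among the 668 windows of chromosome 3 the median was 6, and 67.2% held 8 or fewer. Counted over the top 25% of scores, TGFBR2 held 2, beside a median of 3, and 48.0% of the 8448 windows with such a summit held 2 or fewer.

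**Figure D3:**
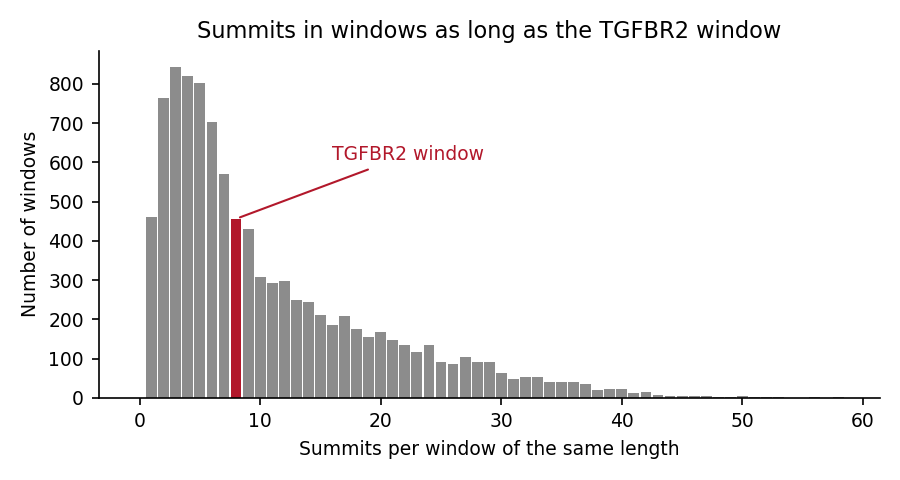
Number of windows (vertical axis) by how many summits they held, over 9845 windows of 287.6 kb with at least 1 summit. The red bar marks windows with 8 summits, as in the TGFBR2 window, next to the median of 7.

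The nearest summit to the strongest one was 14.86 kb away. The previous summit lay 14.9 kb upstream and the next 23.4 kb downstream, which left 38.2 kb around it without another. A span at least as wide surrounded 39.6% of all nuclear summits, 57.9% of those on chromosome 3 and 45.0% of the 20 highest scores, so the spacing at TGFBR2 was common. Of all 105629 nuclear summits, 24.2% had their nearest summit at least as far off as its 14.86 kb (exact Clopper-Pearson 95% interval 24.0% to 24.5%, counting error only). With TGFBR2 included, 5 of the 20 highest scores did (8.66% to 49.1%), and the share was 15.0% among the 100 highest (8.65% to 23.5%), 24.2% among the 500 highest (20.5% to 28.2%) and 32.4% in the top 25% of scores (31.9% to 33.0%). On chromosome 3 it was 35.7% (34.4% to 37.0%). The median distance was 6.83 kb over all nuclear summits, 6.47 kb over the 100 highest scores and 9.64 kb on chromosome 3. Of the 8 members, 3 had no other summit within 10 kb, which is 37.5% beside 35.9% of nuclear summits. These were the strongest summit and both summits in the gene.

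Against its surroundings the TGFBR2 summit stood out by 262.83 score units, the difference from the highest other score within 100 kb. Of all nuclear summits 1 had a greater difference, the summit at rank 2 at position 121485183 on chromosome 1, with 263.80. That summit had 1 other within 100 kb, which scored 4.0, and the next summit after it lay 21053.1 kb away. For comparison, the difference was 196.06 at rank 3 (chromosome 16), 241.54 at rank 4 (X chromosome) and 241.04 at rank 5 (chromosome 9). With the highest other score taken within 500 kb, the TGFBR2 difference was 258.07 and ranked first. This measure contains the score by which the TGFBR2 summit was singled out. Only the summit at rank 2, with a score of 267.80, could have had a greater difference than 262.83 or 258.07. With neighbours this low, the ranks in this measure were thus nearly fixed by the choice of summit and are a description only.

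Low neighbours were also found at other strong peaks. Of the summits at ranks 2 to 20, the highest other score within 100 kb lay between 4.0 and 184.81 (median 31.52), and 6 of these 19 had a lower one than the 18.55 at TGFBR2. The summit at rank 4, at position 77359564 on the X chromosome, had its nearest summit 31.47 kb away and 3 others within 100 kb. TGFBR2 had 7 others within 100 kb, and the 19 had a median of 15. At the other extreme, the summits at ranks 10, 12 and 15 lay within 100 kb of one another on chromosome 17 and each had a neighbour above 100.

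The summits at ranks 6 to 10 were chr9:67791558 with a score of 232.45, chr18:112274 with 229.73, chr21:9826050 with 213.99, chr1:236260505 with 209.27 and chr17:41466196 with 184.81. Their nearest summits were 2.40 to 15.87 kb away. The 14.86 kb at TGFBR2 fell within that range.

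**Figure D4:**
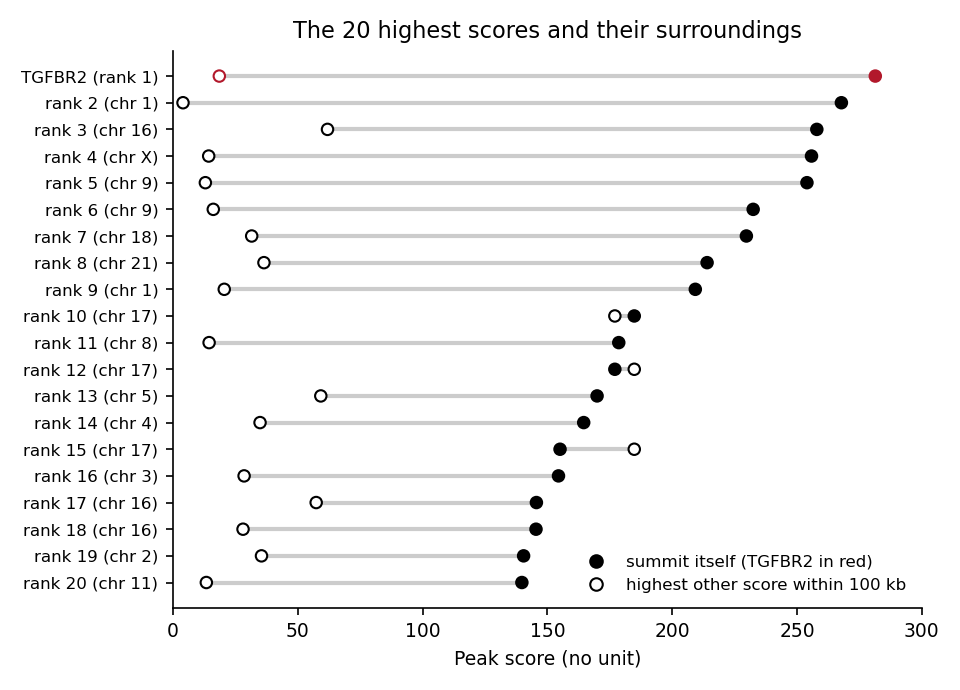
Peak score of the 20 highest-scoring summits (filled circles) and the highest other score within 100 kb of each (open circles), with TGFBR2 in red at the top. The TGFBR2 summit stands at 281.39 over a highest neighbour of 18.55, and the chromosome 17 summits at ranks 10, 12 and 15 each have another score above 100 within 100 kb.

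On chromosome 3, which held 5267 summits, no other score came near that at TGFBR2. As the TGFBR2 summit was singled out as the highest of the list, its lead on the chromosome was fixed in advance. The second highest score was 154.45 at chr3:75718456 (rank 16 of the list) and the third 81.00 at chr3:196625701 (rank 51), which are 126.94 and 200.39 below that at TGFBR2. The next 7 scores lay between 47.24 and 37.44. They were those of chr3:19744131, chr3:71484951, chr3:105867542, chr3:23713495, chr3:86331542, chr3:75834517 and chr3:71380437. Their differences from the highest other score within 100 kb ran from 12.93 to 32.43.

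Except at the strongest summit, the members mostly carried scores that recur through the list. The score 7.37 at chr3:30578227 was the most frequent value of all and was carried by 4026 peaks, and the 6.49 inside the gene was the third most frequent, with 3569. Likewise 10.18 was shared by 2733 peaks, 5.64 by 2572, 4.82 by 1469 and 18.55 by 326. The score of chr3:30575186 was shared by 60. Over all peaks of the list, the median number of peaks with the same score was 28, so these members all lay above it. That of the strongest summit occurred once, as did those of 4.48% of peaks. What gives rise to repeated scores was not tested.

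In RefSeq's order of protein-coding genes on chromosome 3 (GRCh38.p14), TGFBR2 is preceded by LOC105377015 and followed by GADL1, which encodes a decarboxylase of acidic amino acids. Gene positions of GRCh37 other than that of TGFBR2 were not used here. The summits beyond the window were therefore not assigned to these genes, and other genes of the TGF-beta pathway were not located in the list.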

How the data were processed

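Chromatin of MYOCD-overexpressing A549 cells was precipitated with anti-Myocardin or IgG, 1 library each. The authors deposited 1 list with a position and a score per peak, per the file headers. Each interval is 1 bp wide, and its end was taken as the summit. The header gives the score no unit. MACS appears in the list's name, and CASAVA 1.4, mm9 and GRCh38.p12 appear in the submitters' processing notes. Not given in the sources used here were the aligner, the peak caller's threshold, how duplicates were treated and whether IgG served as the control. No summit lay past a chromosome end of hg19 (GRCh37), against 1093 on hg38, 1667 on hg18 and 13627 on mm9 (GenomeInfoDb 1.38.1), so positions are given 1-based in GRCh37.

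The gene's GRCh37 position came with the rule that defines the members. Ranks, distances and counts were computed in Python 3.11.15 with numpy 2.4.6, pandas 2.3.3 and scipy 1.17.1. Nuclear summits alone entered the distance and window measures. The distance measures were tested on a simulated list of 5000 summits with known spacing, and the window counts on a separate short list with known counts. Both returned the known values. Shares of distances have 95% intervals (exact, Clopper-Pearson) for counting error alone, with peaks taken as independent. Promoter windows came from a RefSeq table of GRCh38.p14, and motifs were searched on both strands. Peaks named are all members, the 10 highest scores of the list and the 10 highest of chromosome 3, and others were named after their values were seen. The members and lists were chosen with earlier results of these data known. Other flanks, windows, distances and the top 25% of scores were tried as alternatives. Columns of per-sample values that were left out numbered 0.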

Additional observations from a re-analysis of the deposited data

How the results depend on the processing

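The count of 8 summits depended on the flank. It was 5 with 50 kb on each side, 2 in the gene alone and 8 with 200 kb, which also gave the same median of 7.37 for the other members. The share of same-length windows with as few summits or fewer was 55.0%, and it was 54.6% with windows laid from the middle of the first window, 67.2% on chromosome 3 alone and 48.0% over the top 25% of scores. The distance from the strongest summit to the nearest was 14.86 kb over all scores and over the top 25%. Its difference from the highest other score was 262.83 within 20 and 100 kb and 258.07 within 500 kb. Its distance to the gene start was -142 bp by the end of the interval and -143 bp by its start. No paired analysis was possible because each antibody has 1 library and the list is not divided by library, so no replicate could be left out either. What depth limits cannot be stated, since the list holds no read counts. The planned comparison with other genes of the TGF-beta pathway was not run, since it needs GRCh37 gene positions not used here.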
